A study of Mus musculus with 7 samples.

Results

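The genes described here are 10 genes of lipid synthesis and acyl-CoA metabolism, all of which were measured, among 5017 genes in all. They were taken by name, as every probe set whose platform annotation gave that gene symbol alone, which yielded 192 of 53644 such probe sets. The members were chosen by name with the log2 differences between the groups in these arrays in view, so those differences, their SEs and the members' calls below are a description: they restate the choice, and no p-value is given for a member. The label holds for most of them but not for each: Srebf1 encodes a transcription factor, and Aspa encodes a hydrolase that releases acetate.

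The arrays measured messenger RNA of retinal pigment epithelium (RPE), the pigmented layer behind the photoreceptors, dissected from mouse pups at postnatal day 5. There were 4 control arrays and 3 arrays of Dicer1-deficient RPE, which lacks the enzyme that cuts microRNA precursors. The deficient pups were Dicer1 loxP/loxP with a Dct-Cre transgene, whose Cre is driven by the promoter of a pigment cell gene, dopachrome tautomerase. The matings were of Dicer1 flox/+ Dct-Cre mice with Dicer1 flox/flox mice, so pups of every genotype inherited at least 1 floxed allele, while the labels call the other arrays only control RPE and give no genotype. The labels do not say whether tissue was pooled or whether arrays came from separate animals, and p-values then measure only the spread between these samples. The deficiency rests on Cre in pigment cells, and neither the part of Dicer1 that is floxed nor the share of cells recombined is given in the labels.

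The values are log2 signals, which ran from 2.71 to 13.5 with a median of 6.22 and a lower quartile of 4.63. Control 4 stood apart, with Pearson correlations over all probe sets of 0.942 to 0.951 with the other arrays, against 0.971 to 0.988 among those. The results on members are therefore given with and without it. The brightest probe set of Dicer1 itself read 10.27 to 10.88 in controls and 10.47 to 10.71 in the deficient group, and a probe set outside the floxed part checks nothing about the genotype. Of 22 RPE genes listed, 8 were measured, and all 8 were lower in Dicer1-deficient arrays at their brightest probe sets. The mean of these 8 was 10.99 to 11.22 in control and 10.54 to 10.85 in Dicer1-deficient arrays. Kcnj13, a potassium channel gene of the RPE, fell by 1.19 on the log2 scale (2.28-fold lower, limma adjusted p = 0.0051). The other 7 were not called at their brightest probe sets. Of those, Slc24a4 was at -0.69, Mlph, which moves pigment granules, at -0.60, and Pmel, a pigment granule gene, at -0.05. On the mean of probe sets 3 of the 8 were called lower, where 2.83% of all genes were. Besides Kcnj13 they were Rdh5 (-0.72, limma adjusted p = 0.0061) and Rdh10 (-0.54, limma adjusted p = 0.0383), while Tspan10 was at 0.04. The lens list had a median difference of 1.23 over 7 genes and the photoreceptor list 0.58 over 4, with wide spread between arrays. The part of these shifts in the results below was not tested. In dissected tissue, a lower signal from fewer cells of a type and one from less RNA per cell cannot be told apart.

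As background, fatty acids are built in the cytosol from citrate. ATP citrate lyase (Acly) splits it to acetyl-CoA, acetyl-CoA carboxylase (Acaca) makes malonyl-CoA, and fatty acid synthase (Fasn) joins the units. Acyl-CoA synthetases (Acss3, Acsl3) attach coenzyme A to short or long acids, acyltransferases such as Mogat1 place acyl groups into glycerolipids, and the phosphatase Lpin1 turns phosphatidate into diacylglycerol. Idi1 belongs to the isoprenoid and sterol branch, and Srebf1 encodes SREBP-1, a factor known to induce genes of fatty acid synthesis. The RPE takes up lipid-rich photoreceptor outer segments in the mature eye and handles large amounts of fatty acid.

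Of the 10 genes, 8 were higher and 2 lower in Dicer1-deficient arrays at the brightest probe set of each gene. The larger differences lay in enzymes that activate or transfer acyl groups and in aspartoacylase, namely Acss3 (3.34-fold higher), Mogat1 (3.00-fold), Aspa (2.82-fold) and Acsl3 (1.49-fold). The genes of the central synthesis steps, Fasn and Acaca, differed by 0.03 each on the log2 scale, and Srebf1 (-0.38) and Idi1 (-0.30) were lower. As a description, those 4 higher genes lay among the genes called by limma at a Benjamini-Hochberg adjusted p under 0.05 over all 5017 genes, where 1.42% of all genes were called higher and 0.917% lower. Nothing is read from the 4 of 10 or from any member's call below, since the members were chosen with this comparison known. Without control 4 the same 4 were called, all higher, against 3.17% of all genes called higher and 2.01% lower. For 5 members, the 4 named and Acly, every deficient array lay above every control, which held for 9.27% of all genes. The median difference over the members was 0.28, and -0.01 over all genes. Without control 4 these medians were 0.22 and 0.03.

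The upstream sequences of 4 members are shown because Mogat1, Aspa and Acsl3 were higher while Fasn, a textbook target of SREBP-1, differed by 0.03. They are the 250 bases before an annotated RefSeq start on GRCm38.p6, written 5′ to 3′ on the gene's strand, with each CCAAT (or ATTGG, its reverse) in capitals.
Mogat1, chr1:78510810-78511059, plus strand: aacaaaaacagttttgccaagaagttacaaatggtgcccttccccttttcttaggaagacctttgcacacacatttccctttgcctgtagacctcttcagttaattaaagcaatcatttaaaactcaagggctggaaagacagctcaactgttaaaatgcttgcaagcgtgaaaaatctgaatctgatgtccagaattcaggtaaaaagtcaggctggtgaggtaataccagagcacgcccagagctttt
Aspa, chr11:73324638-73324887, minus strand: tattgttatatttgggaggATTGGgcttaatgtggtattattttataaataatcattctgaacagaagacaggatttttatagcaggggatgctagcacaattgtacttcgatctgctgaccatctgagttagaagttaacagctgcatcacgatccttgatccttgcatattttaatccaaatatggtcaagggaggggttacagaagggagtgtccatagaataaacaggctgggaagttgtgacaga
Acsl3, chr1:78657575-78657824, plus strand: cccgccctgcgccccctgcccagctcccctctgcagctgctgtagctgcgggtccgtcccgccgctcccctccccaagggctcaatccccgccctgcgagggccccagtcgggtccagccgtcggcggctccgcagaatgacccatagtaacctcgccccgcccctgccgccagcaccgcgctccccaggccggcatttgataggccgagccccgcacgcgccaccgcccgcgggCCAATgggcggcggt
Fasn, chr11:120824548-120824797, minus strand: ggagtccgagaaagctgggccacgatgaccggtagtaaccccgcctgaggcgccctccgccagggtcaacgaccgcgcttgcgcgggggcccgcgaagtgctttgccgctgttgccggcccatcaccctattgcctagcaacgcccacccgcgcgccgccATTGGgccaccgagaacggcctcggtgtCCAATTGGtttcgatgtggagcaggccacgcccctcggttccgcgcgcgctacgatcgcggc
A promoter entry was found for 9 of the 10 members, with 11 starts. The sterol regulatory element TCACNCCAC, searched on both strands, had no match in any of them, and in 1.05% of all 32851 promoter windows of the same length. CCAAT matched in 6 of the 11 windows (those of Aspa, Fasn, Acsl3 and Idi1 and 2 of the 3 of Srebf1), against 33.8% of all windows, and in Fasn it matched at 3 places, of which a forward and a reverse match overlap. The E-box CANNTG matched in 9 of the 11 windows and in 66.2% of all windows. The windows of Mogat1 and Aspa held 41.2% and 38.8% G and C, those of Fasn and Acsl3 69.2% and 75.6%. These are letter matches only, and no match says only that these letters are not in this window. For Aspa, Fasn, Srebf1, Acaca and Lpin1 every window lay inside the gene's annotated span, farthest inside for Acaca and Lpin1. The bases before the outermost start of these genes were not searched.

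**Figure D1:**
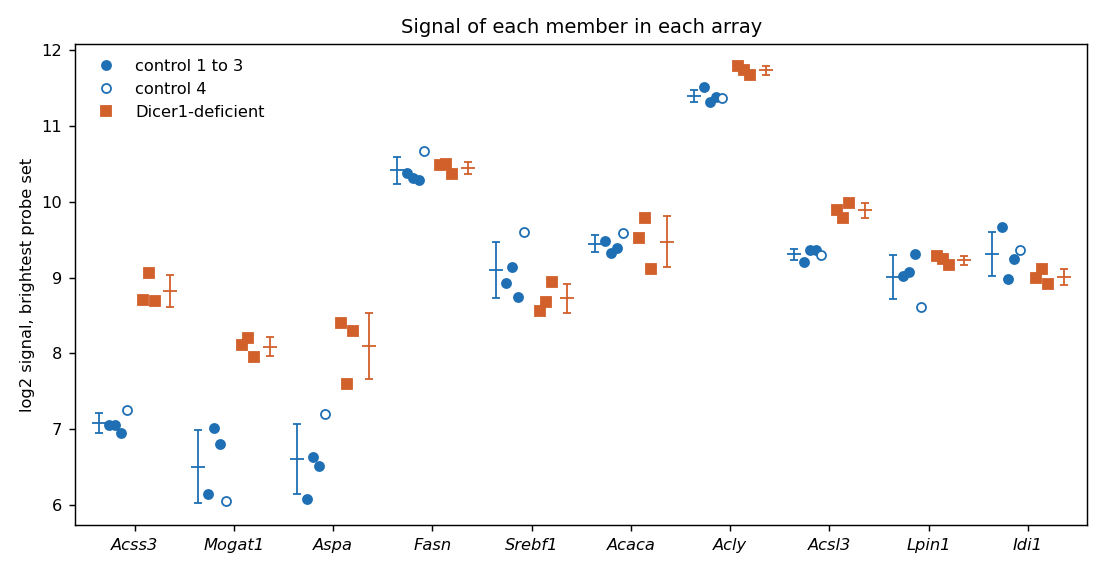
Log2 signal of the brightest probe set of each of the 10 genes in every array (circles, controls, with control 4 open; squares, Dicer1-deficient), with group mean and SD beside the points. Signals of different genes cannot be set against each other. The groups are apart in Acss3, Mogat1, Aspa, Acly and Acsl3, and they overlap in the other 5.

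Acss3, on chromosome 10, encodes a mitochondrial synthetase that joins short acids such as propionate to coenzyme A. Its log2 signal was 7.06, 7.05, 6.95 and 7.26 in controls 1 to 4 and 8.71, 9.06 and 8.69 in Dicer1-deficient arrays 1 to 3. Every Dicer1-deficient array lay above every control, and control 4 was the highest control. The means were 7.08 ± 0.13 (SD, n = 4) and 8.82 ± 0.21 (SD, n = 3), a log2 difference of 1.74 (SE 0.13), and 1.80 without control 4. The difference ranked 9 of 5017 genes. Along its 17 probe sets every difference was positive, from 0.03 to 2.57 with a median of 1.62. In 14 of them the deficient arrays lay above all controls, as in 7.35% of all probe sets. In the fit over all probe sets 11 of the 17 were called higher, where 0.656% of all probe sets were, and 14 without control 4, where 1.19% were. The smallest difference came from a probe set at 4.26 in control and 4.28 in Dicer1-deficient arrays, below the lower quartile of all values, and 4 of the 17 had a mean above the median of all values. Acss3 was called in each of the 7 fits that left out 1 array, with differences of 1.62 to 1.80.

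Acsl3, on chromosome 1, encodes a long-chain acyl-CoA synthetase of the endoplasmic reticulum and lipid droplets. It read 9.21, 9.37, 9.36 and 9.30 in controls 1 to 4 and 9.89, 9.79 and 9.98 in Dicer1-deficient arrays. The groups were narrow and apart, at 9.31 ± 0.07 (SD, n = 4) and 9.89 ± 0.10 (SD, n = 3). The log2 difference was 0.58 (SE 0.10), and 0.58 without control 4. All 14 of its probe sets were positive, from 0.31 to 1.01 with a median of 0.64. In 9 the deficient arrays lay above all controls, as in 7.35% of all probe sets. None of the 14 was called on its own over all probe sets, and 1 was without control 4. On the mean of its probe sets the difference was 0.66. The gene was called in 1 of the 7 fits that left out an array, the one without control 4, while the difference stayed at 0.53 to 0.63 in all 7. It was not called on the median of its probe sets (0.68) or after median centring (0.55).

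Mogat1, also on chromosome 1, encodes a monoacylglycerol acyltransferase, which makes diacylglycerol. Controls 1 to 4 read 6.15, 7.02, 6.81 and 6.05, and Dicer1-deficient arrays 8.11, 8.20 and 7.95. The controls spread over nearly a log2 unit, with controls 2 and 3 high and controls 1 and 4 low, yet all lay below the Dicer1-deficient arrays. The means were 6.50 ± 0.48 (SD, n = 4) and 8.09 ± 0.13 (SD, n = 3), a log2 difference of 1.58 (SE 0.25), and 1.43 without control 4. No detection call was used, so it is not known whether the control signal, near the median of all values, exceeded background.

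All 6 probe sets of Mogat1 were positive, from 0.20 to 1.89. Taken in the order of their identifiers, the differences were 1.58, 1.89, 1.42, 1.06, 0.55 and 0.20. Their mean signals were 7.18, 7.15, 6.55, 5.45, 4.84 and 3.82, so that the difference was small where the probe set was dim, and across these 6 probe sets of the same arrays Pearson's r was 0.98. Of the 6, 3 were called higher, where 0.656% of all probe sets were. In 5 the deficient arrays lay above all controls, as in 7.35% of all probe sets. Averaged over the probe sets the gene differed by 1.12, and by 1.01 without control 4. It was called in 3 of the 7 fits that left out an array, those without control 2, 3 or 4. The call was lost without control 1 or any 1 of the Dicer1-deficient arrays, with differences of 1.43 to 1.75 over the 7.

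Aspa, on chromosome 11, encodes aspartoacylase, which splits N-acetylaspartate into aspartate and acetate and is best known from myelin-forming glia. Controls 1 to 4 read 6.08, 6.63, 6.51 and 7.20, and Dicer1-deficient arrays 8.40, 7.60 and 8.30. Control 4 was the highest control and Dicer1-deficient array 2 the lowest of its group, and the groups did not overlap. The means were 6.605 ± 0.46 (SD, n = 4) and 8.10 ± 0.44 (SD, n = 3), a log2 difference of 1.49 (SE 0.29), and 1.69 without control 4.

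All 8 probe sets of Aspa were positive, from 0.58 to 2.21 with a median of 1.31, and in all 8 the arrays did not overlap. Deficient arrays lay above all controls in 7.35% of all probe sets. Over all probe sets 5 were called, though not the brightest, and 6 without control 4, the brightest among them. Of all probe sets 0.656% were called higher, and 1.19% without control 4. The gene was called in 1 of the 7 fits that left out an array, the one without control 4, with differences of 1.32 to 1.74. It was not called after a further quantile normalization (1.47) or median centring (1.47). Of 16 oligodendrocyte markers listed, Cnp alone was measured, at 8.26 to 8.45 in control and 8.39 to 8.77 in Dicer1-deficient arrays. Of 16 adipocyte markers, Cfd and G0s2 were measured, and their mean was 5.21 to 5.60 in control and 5.36 to 5.65 in Dicer1-deficient arrays, below the median of all values. Both marker ranges overlapped between the groups.

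**Figure D2:**
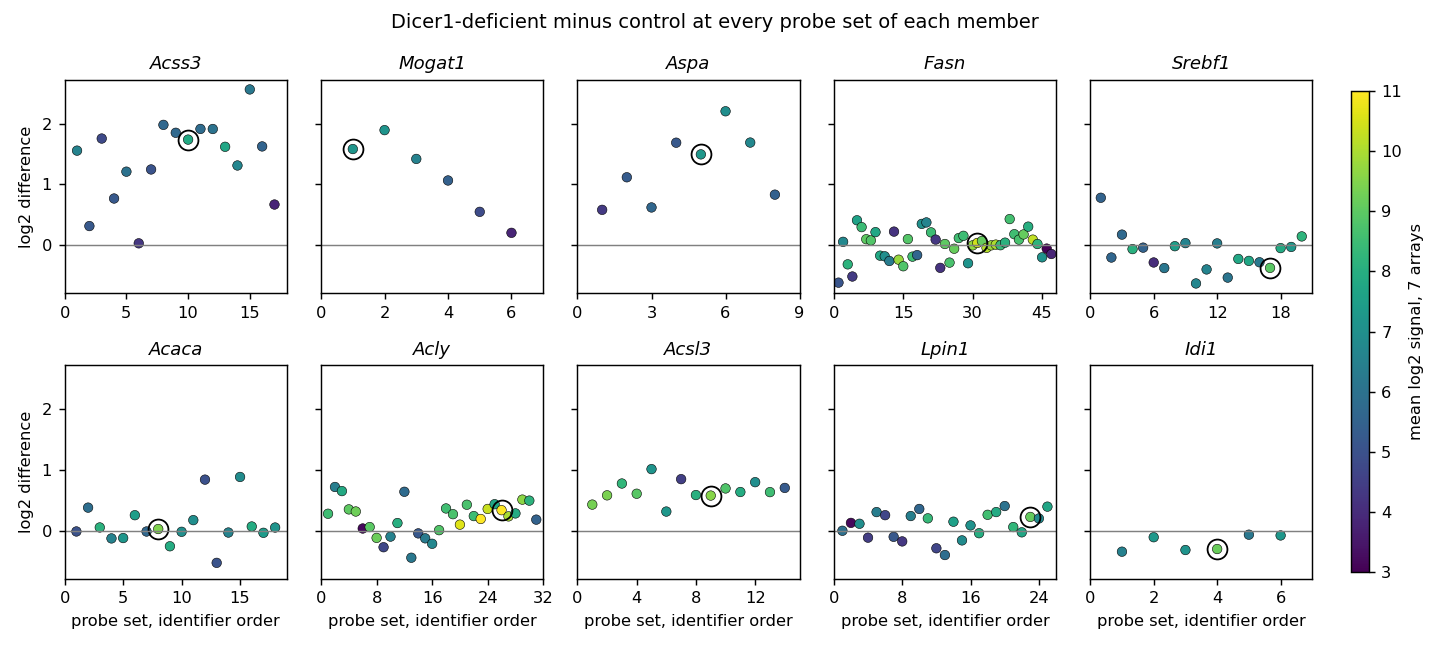
Log2 difference, Dicer1-deficient minus control, at every probe set of the 10 genes in the order of probe set identifiers, coloured by mean log2 signal over the 7 arrays, with the brightest probe set ringed. All probe sets of Acss3, Mogat1, Aspa and Acsl3 lie above 0 and all 6 of Idi1 below it, while those of Fasn, Acaca and Lpin1 lie on both sides.

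Acly, on chromosome 11, encodes the lyase that supplies cytosolic acetyl-CoA. It read 11.51, 11.31, 11.38 and 11.37 in controls 1 to 4 and 11.79, 11.73 and 11.67 in Dicer1-deficient arrays. The groups were apart by a small margin, at 11.40 ± 0.08 (SD, n = 4) and 11.73 ± 0.06 (SD, n = 3), a log2 difference of 0.34 (SE 0.09), and 0.33 without control 4. It was not called over all genes, but was with a variance trend (0.34) and with array weights (0.35), in 2 of 16 alternatives. Of its 31 probe sets 24 were positive, with a median of 0.24, 0.16 without control 4, and a range from -0.45 to 0.72. In 8 of them (25.8%) the arrays did not overlap, all 8 higher, where 7.35% of all probe sets were. None was called. On the mean of its probe sets the difference was 0.20, and 0.12 without control 4.

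Acaca encodes the carboxylase that makes malonyl-CoA. Controls 1 to 4 read 9.48, 9.33, 9.38 and 9.59, and Dicer1-deficient arrays 9.52, 9.78 and 9.12. The Dicer1-deficient arrays lay on both sides of the controls. The means were 9.45 ± 0.12 (SD, n = 4) and 9.47 ± 0.33 (SD, n = 3), a log2 difference of 0.03 (SE 0.16), and 0.08 without control 4. Its 18 probe sets were split evenly, 9 positive and 9 negative, with a median of 0.01, and -0.03 without control 4. Of the 18, 15 have identifiers between those of Synrg and Mrm1 on chromosome 11, where Acaca lies. The identifiers of the other 3 fall between those of Osr1 and Nt5c1b on chromosome 12, and their assignment to Acaca is uncertain. Those 3 differed by -0.04 to 0.07.

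Fasn, on chromosome 11, encodes the synthase that builds palmitate. It read 10.38, 10.31, 10.29 and 10.67 in controls 1 to 4 and 10.48, 10.50 and 10.36 in Dicer1-deficient arrays. Control 4 was the highest array, and all Dicer1-deficient arrays lay within the control range. The means were 10.41 ± 0.18 (SD, n = 4) and 10.45 ± 0.07 (SD, n = 3), a log2 difference of 0.03 (SE 0.12), and 0.12 without control 4. Of its 47 probe sets, the largest number of any member, 26 were positive and 21 negative, with a median of 0.02. None was called, and in none were the arrays apart. Averaged over its probe sets the signal was 7.77 ± 0.04 (SD, n = 4) and 7.76 ± 0.06 (SD, n = 3), with a difference of -0.0081. The signs of Fasn and Acaca each turned in 4 of 16 alternative settings.

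Srebf1, on chromosome 11, read 8.92, 9.14, 8.74 and 9.60 in controls 1 to 4 and 8.56, 8.67 and 8.94 in Dicer1-deficient arrays. Control 4 was far the highest, and Dicer1-deficient array 3 lay among the controls. The means were 9.10 ± 0.37 (SD, n = 4) and 8.72 ± 0.20 (SD, n = 3), a log2 difference of -0.38 (SE 0.21), and -0.21 without control 4. Of its 20 probe sets 15 were negative, with a median of -0.14 and a range from -0.63 to 0.78. The single one above 0.2 was the first in identifier order, at 0.78, which was dim, with a mean signal of 5.51. In 1 probe set the deficient arrays lay below all controls, as in 6.62% of all probe sets, and none was called.

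Lpin1, on chromosome 12, encodes lipin-1, a phosphatidate phosphatase of glycerolipid synthesis that also acts in the nucleus. Controls 1 to 4 read 9.02, 9.07, 9.31 and 8.61, and Dicer1-deficient arrays 9.28, 9.24 and 9.17. Control 4 was the lowest array, and the Dicer1-deficient arrays lay within the control range. The means were 9.005 ± 0.29 (SD, n = 4) and 9.23 ± 0.06 (SD, n = 3), a log2 difference of 0.23 (SE 0.16), and 0.09 without control 4. Its 25 probe sets had a median of 0.13, and 0.07 without control 4, with 16 positive and 9 negative. In 2 the deficient arrays lay above all controls, as in 7.35% of all probe sets.

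Idi1, on chromosome 13, encodes isopentenyl diphosphate isomerase. It read 9.66, 8.98, 9.24 and 9.36 in controls 1 to 4 and 8.99, 9.12 and 8.91 in Dicer1-deficient arrays. The groups overlapped through control 2. The means were 9.31 ± 0.28 (SD, n = 4) and 9.01 ± 0.10 (SD, n = 3), a log2 difference of -0.30 (SE 0.16), and -0.29 without control 4. All 6 of its probe sets were negative, from -0.35 to -0.07, and from -0.44 to -0.14 without control 4. The arrays were apart in 1 of the 6, and none was called. Over all members, 19 of the 192 probe sets were called higher and 0 lower, and all 19 belonged to Acss3, Mogat1 and Aspa. By the limma fit 0.656% of all probe sets were called higher and 0.406% lower. Without control 4, 24 were called higher and 0 lower, where limma called 1.19% of all probe sets higher and 1.11% lower (2.30% in either direction). In 46 of the 192 the deficient arrays lay above all controls and in 2 below them, against 7.35% and 6.62% of all probe sets.

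Mogat1 and Acsl3 are neighbours on chromosome 1, with no other protein-coding gene between them in the RefSeq order. The genes on either side were set beside them to show whether the difference extended along the chromosome. Upstream of Mogat1, Farsb, a phenylalanyl-tRNA synthetase subunit gene, had a log2 difference of 0.15 (limma adjusted p = 0.66). Sgpp2, which encodes a sphingosine phosphate phosphatase, had one of -0.13 (limma adjusted p = 0.865). Kcne4, a potassium channel subunit gene beyond Acsl3, had one of -0.42 (limma adjusted p = 0.359). Utp14b, which shares its start with Acsl3 in the RefSeq table, read 6.79, 6.34, 6.48 and 6.04 in controls 1 to 4 and 7.26, 7.02 and 7.22 in Dicer1-deficient arrays. Its arrays did not overlap, and its difference of 0.75 did not pass (limma adjusted p = 0.0803).

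**Figure D3:**
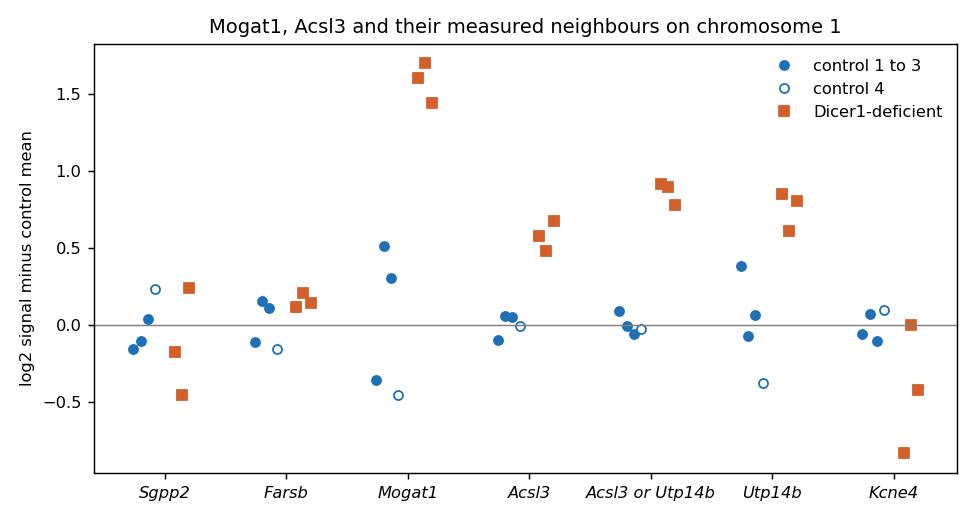
Log2 signal minus the control mean in every array for Mogat1, Acsl3 and the measured genes around them, in chromosome order; the column named for both Acsl3 and Utp14b is a probe set annotated to the pair. Dicer1-deficient arrays lie above all controls in Mogat1, Acsl3, the shared probe set and Utp14b, and overlap them in Sgpp2, Farsb and Kcne4.

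The other genes of lipid metabolism that were measured gave no call at their brightest probe set. The 8 lists written for the pathways around the members named 216 other genes, of which 51 were measured. By limma 0 of the 51 were called in either direction, where 2.33% of all genes were. Nothing is known here of the listed genes that were not measured. At an unadjusted p under 0.05 there were 9 of the 51 (17.6%), against 14.5% of all genes. Their differences ran from -0.57 to 0.63 with a median of -0.07, and 35 of the 51 (68.6%) were negative, against 51.9% of all genes. These signs moved with control 4, without which the median was -0.02 and 28 of the 51 were negative, while 57.1% of all genes were positive. Without control 4, 4 of the 51 were called (2 higher and 2 lower, against 5.18% of all genes). Averaging probe sets gave 1 higher, against 3.03% of all genes, and 1 lower, against 2.83% (5.86% in either direction). Doing both, a setting added after the data were seen, gave 5 higher, against 6.74% of all genes, and 9 lower, against 10.3%. With array weights 385 of all 5017 genes were called. Of the 51, 6 were, namely Pdss2 and Sirt1 higher and Acot13, Acsf2, Ptdss1 and Eci3 lower. Leaving out dim genes gave calls for Acot13 and Pdss2. A further quantile normalization, where 120 of all genes were called, gave one for Pdss2. Nothing is read from these counts.

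The acyl-CoA side held the lowest of these values. Acot13, a mitochondrial acyl-CoA thioesterase gene, read 8.59, 8.89, 8.68 and 8.92 in controls 1 to 4 and 8.20, 8.32 and 8.09 in Dicer1-deficient arrays. All its Dicer1-deficient arrays were below all controls, with a log2 difference of -0.57 (SE 0.12, limma adjusted p = 0.0578). It passed without control 4 (-0.52, limma adjusted p = 0.0432) and when its 3 probe sets were averaged (-0.47, limma adjusted p = 0.0122). It passed in 5 of 16 alternatives, and not on the median of its probe sets (-0.41, limma adjusted p = 0.227). Of the 12 thioesterase and acyl-CoA binding genes measured, Acot13 among them, 11 were negative, where 51.9% of all genes were. Their median was -0.10. Without control 4, 6 of the 12 were negative, with a median of -0.0027. Acot1 to Acot6 are close paralogs, so their probe sets may share signal. Acbd3, a Golgi protein gene of the same list, had the single positive value, 0.16 (limma adjusted p = 0.559), but -0.16 with its probe sets averaged.

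Of the acyl-CoA synthetases, Acsf2, a mitochondrial medium-chain enzyme, was at 9.49 ± 0.13 (SD, n = 4) and 9.09 ± 0.02 (SD, n = 3), with no overlap (-0.40, limma adjusted p = 0.107). Acsl6, a long-chain enzyme of neurons, had a difference of 0.10 (limma adjusted p = 0.823). These were the 2 measured of 22 other synthetase genes listed. Of 27 other genes listed for fatty acid synthesis 3 were measured. The elongase gene Elovl2 (0.51, limma adjusted p = 0.517) and Me1, the malic enzyme that supplies NADPH (-0.21, limma adjusted p = 0.533), had the smallest p of these. In fatty acid oxidation 5 of 42 genes listed were measured, with a median of -0.16, and -0.24 without control 4. Eci3, a peroxisomal enoyl-CoA isomerase gene, was at -0.43 (limma adjusted p = 0.21) and at -0.54 without control 4, where it passed (limma adjusted p = 0.0229). Acadvl, the very long-chain acyl-CoA dehydrogenase, had -0.23 (limma adjusted p = 0.341).

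In the sterol and isoprenoid branch 6 other genes were measured, 2 of them positive, with a median of -0.05. Without control 4, 5 of the 6 were positive and the median was 0.05. Pdss2, which builds the coenzyme Q side chain, read 6.82, 6.77, 6.92 and 6.58 in controls 1 to 4 and 7.52, 7.18 and 7.52 in Dicer1-deficient arrays. The arrays did not overlap, and the log2 difference of 0.63 (limma adjusted p = 0.0538) passed without control 4 (0.57, limma adjusted p = 0.0398) but was 0.16 on the mean and -0.0094 on the median of its 9 probe sets. Hsd17b7, a sterol reductase, had 0.38 (limma adjusted p = 0.464). Among 9 SREBP regulators and sterol handling genes, the deacetylase gene Sirt1 had 0.44 (limma adjusted p = 0.256) and passed without control 4 (0.56, limma adjusted p = 0.0402). Mlx, a partner of carbohydrate-responsive factors, had 0.27 (limma adjusted p = 0.348), but -0.0154 with probe sets averaged and control 4 left out.

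Glycerolipid synthesis was the longest list, with 13 other genes measured, 4 positive and 9 negative. Ptdss1, a phosphatidylserine synthase gene, was lower without overlap at 10.57 ± 0.08 (SD, n = 4) and 10.31 ± 0.02 (SD, n = 3), a difference of -0.27 (limma adjusted p = 0.225). Agpat3, an acyltransferase gene of phosphatidic acid synthesis, was higher without overlap at 10.86 ± 0.04 (SD, n = 4) and 11.10 ± 0.02 (SD, n = 3), a difference of 0.24 (limma adjusted p = 0.238). On the median of its 11 probe sets Agpat3 differed by 0.70 and was called (limma adjusted p = 0.0226). Beside Aspa, Slc13a5, a citrate transporter gene, was the single other gene of the N-acetylaspartate list measured, at -0.17 (limma adjusted p = 0.662), but at 0.072 on the median of its probe sets.

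**Figure D4:**
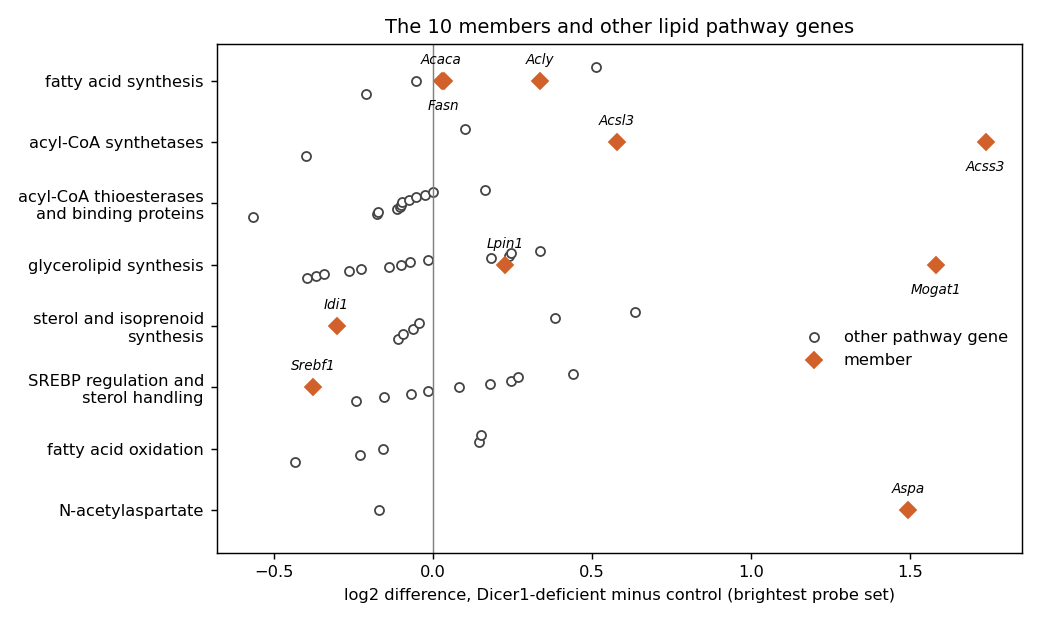
Log2 difference at the brightest probe set for the 10 members (filled, named) and the 51 other genes measured (open), by pathway list; the height within a list only separates points. Acss3, Mogat1 and Aspa lie above 1.4, outside the range of -0.57 to 0.63 of the other genes. Nothing is read from that, since the members were chosen with these differences in view.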

How the data were processed

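RNA from dissected RPE was prepared with miRNeasy, biotinylated and hybridised to Affymetrix arrays, as the labels' protocols state. The deposited values are log2 signals of 65535 probe sets on 7 arrays. RMA and Partek 6.6 are named, without their roles, in the submitters' processing notes. For build and probe alignment the sources used here give nothing. RMA usually includes quantile normalization, which would remove differences in total RNA. The deposited arrays still differed in median signal, at 6.05 in control 4 and 6.22 to 6.26 in the others. Groups came from the labels, and replicate numbers only name arrays.

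The platform annotation names 1 gene for 53644 probe sets and several for 877, and 11014 have no name here. Symbols were updated through the RefSeq gene table (698 updated, 13 unmatched), which gave 5017 genes and also served for chromosomes and gene order. The deposited values cover part of the genome. Of 216 other pathway genes listed 51 were measured, so most genes of these pathways are not analysed here. Each gene was represented by its brightest probe set, judged over all arrays. No detection calls were used.

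Groups were compared with limma 3.58.1 in R 4.3.3 (two-sided lmFit and eBayes fits with 5 residual degrees of freedom, p adjusted by Benjamini-Hochberg across every gene or every probe set with 1 symbol, threshold 0.05). Differences are log2, the deficient mean less the control mean, the SE is limma's moderated one, and a gene is called at an adjusted p under 0.05. The code was tested on simulated data. Motifs were searched with Python 3.11.15. Named besides the members are, per pathway list, the other genes called or else the 2 with the smallest p. The members and lists were chosen with earlier results of these data known. The number of arrays limits the precision. Alternatives were other summaries of probe sets, normalizations, a filter on dim genes, moderation settings, array weights, another threshold and leaving out each array.

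The marker lists not given above were computed the same way. The median difference was 0.27 over 6 genes for the inner retina and -0.15 over 9 for fibroblasts and sclera. For melanocytes and Schwann cells it was -0.59 over 3, for macrophages -0.21 over 2 and for endothelium -0.10 over 1. It was -0.15 over 5 for surface epithelium and 0.05 over 8 for muscle. In the inner retina list Tfap2a was called lower (-0.99, limma adjusted p = 0.047), while 4 of the 6 were positive. In surface epithelium Krt10 was called lower (-0.73, limma adjusted p = 0.0071), but was at -0.19 on the mean of its probe sets. Without control 4 the surface epithelium median was 0.08. On the mean of probe sets 3.03% of all genes were called higher and 2.83% lower. There 3 of the 9 fibroblast and sclera genes were called lower, with a median of -0.36. So were 2 of the 3 melanocyte and Schwann genes, and 1 inner retina gene was called in each direction.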

Additional observations from a re-analysis of the deposited data

Results flagged for a closer look

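Outside the probe sets that name a single gene, 2 probe sets are annotated to both Acsl3 and Utp14b, and both were higher in every Dicer1-deficient array than in every control. Probe set 10347749 read 8.36, 8.42, 8.43 and 8.94 in controls 1 to 4 and 9.36, 9.45 and 9.18 in Dicer1-deficient arrays, a log2 difference of 0.79. Probe set 10347750 read 9.40, 9.31, 9.25 and 9.29 in controls 1 to 4 and 10.23, 10.21 and 10.09 in Dicer1-deficient arrays, a log2 difference of 0.86. The 14 probe sets of Acsl3 alone had a median of 0.64, and the 2 of Utp14b alone differed by 0.70 and 0.75. Which of the 2 genes gives the shared signal cannot be told from these probe sets. No array of the control group stood out beyond Dixon's 95% critical value in the 20 sets of control values examined for the members.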

How the results depend on the processing

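No paired analysis was possible because the labels give nothing by which control and deficient arrays could be paired. The members' signs held in all alternatives but for Fasn and Acaca, which turned in 4 of 16 each. The members called numbered 2 with median centring (Acss3 and Mogat1), where 86 of all genes were called. With 1 array left out they numbered 1 to 4, where 33 to 260 of all genes were called. They numbered 3 on the median of probe sets, which lost Acsl3, where 176 of all genes were called. After quantile normalization again they numbered 3, with Aspa lost, where 120 of all genes were called. Acly was the fifth with a variance trend and with array weights. The genes called, 117 at the main setting, were 294 on the mean and 176 on the median of probe sets, 385 with array weights, 213 at a threshold of 0.1, and 33 to 260 with 1 array left out. The other pathway genes called, 0 at the main setting, were 2 on the mean, 2 on the median (Agpat3 among them), 1 after quantile normalization again, 2 with dim genes left out, 6 with array weights, 2 at a threshold of 0.1, and 0 to 4 with 1 array left out. The probe sets called, 570, were 1631 with array weights and 144 to 1236 with 1 array left out. With probe sets averaged and control 4 left out, a setting chosen after the data were seen, 853 genes and 14 other pathway genes were called. Signs turned for Acbd3 (-0.16 on the mean, -0.21 on the median and -0.19 on the mean without control 4), Pdss2 (-0.0094 on the median), Slc13a5 (0.072 on the median and 0.0063 on the mean without control 4) and Mlx (-0.0154 on the mean without control 4). The cause of these shifts was not tested. No detection calls were used, so for signals near or below the median of all values, those of Mogat1, Aspa and most probe sets of Acss3 in controls among them, the distance to background is unknown.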

Other observations

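When each gene was taken as the mean of its probe sets and control 4 was left out, 14 of the 51 other pathway genes passed limma over all genes, 5 higher and 9 lower, where 6.74% of all genes passed higher and 10.3% lower. Soat1, the enzyme that stores cholesterol as esters, had a log2 rise of 0.56 (adjusted p from limma = 4.7e-04), and with all arrays one of 0.60 (adjusted p from limma = 0.0025). At its brightest probe set it read 10.88, 10.94, 11.08 and 11.23 in controls 1 to 4 and 11.47, 10.81 and 11.56 in Dicer1-deficient arrays, so the groups overlapped there. Of the phospholipid acyltransferases, Agpat3 (0.28), Lpcat1 (0.26) and Lpgat1 (0.26) rose while Mboat1 (-0.23) fell. Plpp1, a lipid phosphate phosphatase gene (-0.37), Pemt, which methylates phosphatidylethanolamine (-0.33), and Ptdss1 (-0.20) fell. Of the genes listed under oxidation, the enoyl-CoA isomerase gene Eci2 (-0.31) and the peroxisomal reductase gene Pecr (-0.41) fell. Pecr was at 0.15 at its brightest probe set. Acsf2 (-0.42) and Acot13 (-0.50) fell too. Of the regulators, Sirt1 (0.37) rose and Insig2, which retains the SREBP complex in the endoplasmic reticulum (-0.25), fell. These 14 genes were singled out after their values were seen, under a setting chosen in the same way.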
